A study of Mus musculus with 6 samples.

Results

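The resting transcriptome described here is that of Car4-sufficient alveolar macrophages, measured in the 3 Car4fl/fl libraries of a series of 6. The members are the libraries that the labels assign to this genotype, and every row of the count table was read in them. The study sorted alveolar macrophages from mouse lung and sequenced their polyadenylated RNA, with 1 library for each of 3 mice per genotype by its design text. The mice of this group carried loxP-flanked alleles of Car4, the gene of membrane-anchored carbonic anhydrase 4, with no Cre recombinase named in the label, and were untreated. The mice of the other 3 libraries carried the same alleles with CD11cCre, and those libraries are not used here. Strain, age, the sort gate and wild-type mice without floxed alleles are details not given in the sources used here.

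Alveolar macrophages are the resident phagocytes of the airspace surface. They derive from fetal precursors, renew themselves locally, and depend on granulocyte-macrophage colony-stimulating factor and transforming growth factor beta, which act through the nuclear receptor PPARγ to set their identity. They take up and degrade surfactant lipid, inhaled particles and dying cells, so lysosomal enzymes, lipid exporters and scavenger and lectin receptors belong to their known equipment.

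Levels are given as CPM, the counts of a gene per 1000000 counts of its library over all rows. A CPM is a share of reads and grows with the length of a transcript, so levels of different genes are compared as TPM, counts per kilobase of exon scaled to the same total over protein-coding genes. Ranks, sums and shares in CPM compare genes as shares of reads, not as levels. Values follow the order of libraries 1, 2 and 3, and a value with ± is the mean and SD of the 3 libraries. The 3 libraries are 1 group, so no test was made and spread is described by the coefficient of variation (CV) and by the ratio of the highest to the lowest library. In RNA from sorted cells as a bulk, fewer cells of a type and less RNA per cell cannot be told apart.

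The libraries held 61131500, 59265806 and 56450503 counts, at which 3 counts correspond to 0.0491 to 0.0531 CPM. Protein-coding genes took 98.4 to 98.6% of the counts, mitochondrial transcripts 1.08 to 1.16% and ribosomal protein genes 1.97 to 2.2%. Of 46078 rows, 11153 reached 1 CPM in every library, and 10601 of these were protein-coding. Across the 9431 rows with a mean of at least 5 CPM the median CV was 5.43% and the median ratio of the highest to the lowest library was 1.11. Library 3 stood apart in the genes with a wide spread: 84 rows, 0.891% of the 9431, had a highest library at least 2 times the lowest, and 57 of the 84 were lowest in library 3. The count of such rows was 10 without library 3, against 54 without library 1 and 70 without library 2. Genes with this spread are called variable below. At the share of 0.891%, a list of 100 genes would hold about 1 variable gene, so a count of 0 or 1 in a list given below is near that of all rows. The share depends on level: 22 of the 84 rows had a mean of at least 20 CPM, although the row of rank 6889 was still at 19.3 CPM. Variable rows were thus more frequent between 5 and 20 CPM, and 0.891% is a low background for lists of genes at such levels.

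The identity genes of alveolar macrophages were present in all 3 libraries. Their median CV at 5 CPM was 6.46%, slightly above the 5.43% of all rows at that level. None of the 42 at 5 CPM was variable, near the share of 0.891% over all rows. All 44 members of the identity list reached 1 CPM in every library, and 38 had a mean of at least 100 CPM. The list took 48439, 46906 and 48220.4 CPM of the libraries, 4.79% of all counts. Siglecf, the sialic acid-binding lectin used to recognise these cells, was at 741, 673 and 713 CPM. Marco, a scavenger receptor for particles and bacteria, was at 307, 301 and 282 CPM. Pparg, which encodes PPARγ, was at 270.5, 255 and 278 CPM. For these 3 genes the highest library was 1.09 to 1.1 times the lowest. Itgax, the CD11c integrin chain, was at 1842, 1751 and 1494 CPM and was lowest in library 3. Chil3, a secreted chitinase-like lectin, was at 14415, 14637 and 17951 CPM and was highest in library 3.

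Car4 itself was expressed in every library, with the widest spread of the 6 defining markers. It was at 492, 390.4 and 272 CPM, so library 1 held 1.81 times the level of library 3. Its CV was 28.6%, against 4.83% for Siglecf and 4.42% for Pparg. Of the 16 carbonic anhydrase genes in the list, Car4 took most of the summed level of 545, 443 and 308 CPM, and the second was the mitochondrial form Car5b at 36.9, 36.2 and 22.2 CPM. Per length, Car4 was at 689.8 ± 188 TPM and Car5b at 17.6 ± 4.56 TPM.

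**Figure D1:**
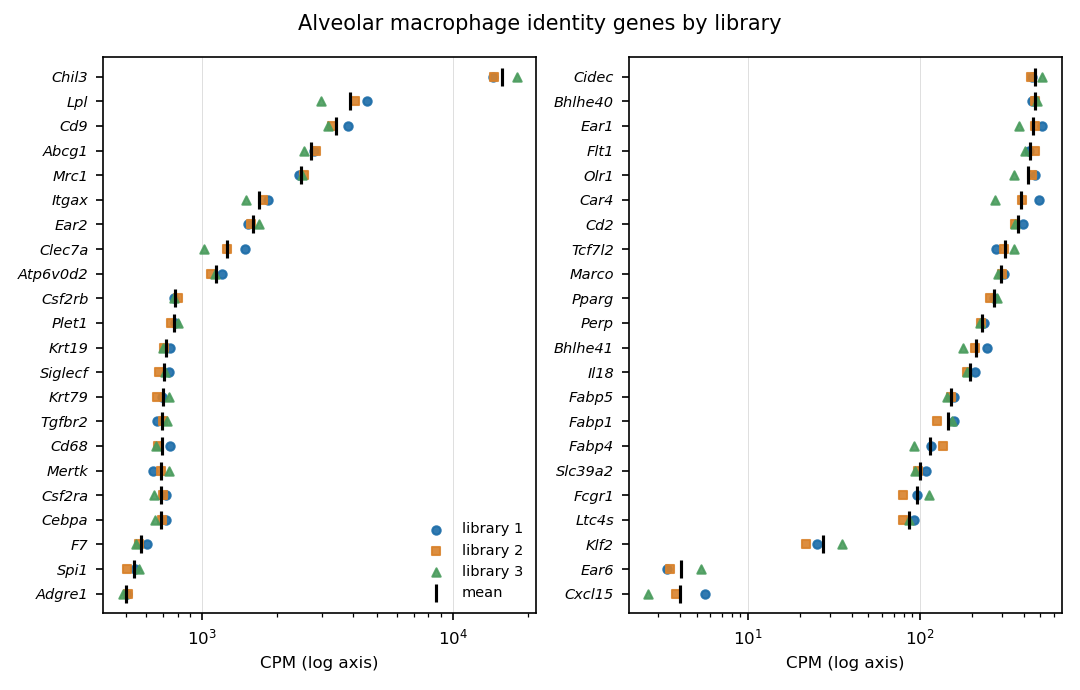
CPM of the 44 identity genes in each of the 3 libraries (coloured points, log axis) with the mean as a black bar, ordered by mean. Most genes have 3 points close together, while Car4 runs from 492 CPM in library 1 to 272 CPM in library 3, and the lowest genes are Ear6 and Cxcl15 near 4 CPM.

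The identity genes spanned a wide range of levels. The lowest 2, Ear6 and Cxcl15, named here after their values were seen, had means of 4.06 and 4.0 CPM. Cxcl15 is also a member of the list of alveolar type 2 epithelial markers, so it does not tell these cell types apart. Lpl, lipoprotein lipase, was at 4565, 4084 and 2989 CPM and had the largest CV among the 25 most abundant rows, 20.8%, with library 3 lowest. Abcg1, which exports cholesterol from macrophages, was at 2787, 2840.2 and 2557 CPM. Mrc1, the mannose receptor, was at 2434, 2542 and 2503 CPM and Cd9, a tetraspanin, at 3820.1, 3302 and 3174 CPM. Per length these 4 were ordered Cd9 (5923 ± 485 TPM), Mrc1 (1382 ± 57.7 TPM), Abcg1 (1320.2 ± 77.6 TPM) and Lpl (1306 ± 259.6 TPM). The ranges of Mrc1, Abcg1 and Lpl over the 3 libraries overlapped on this scale, so their order by the mean is not beyond the spread. Where genes are listed below by their mean TPM, neighbours with overlapping ranges are named, and their order is not beyond the spread either.

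Lysozyme and a chitinase-like protein led the transcriptome. Lyz2, the lysozyme of macrophages (ENSMUSG00000069516, GRCm38 chromosome 10, 117277331 to 117282321), was at 21350.1, 18770.3 and 14746 CPM, highest in library 1 and lowest in library 3. Chil3 (ENSMUSG00000040809, chromosome 3, 106147554 to 106167564) followed with the opposite order of these 2 libraries, and in library 3 it exceeded Lyz2 in CPM. Per length the mean levels were 49016 ± 8369 TPM for Lyz2 and 33921 ± 4504 TPM for Chil3, and in library 3 they were 39757 and 39026 TPM. Both genes have near-identical relatives in the genome, so their counts carry the uncertainty of the authors' assignment of shared reads.

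The genes after them were those of the cytoskeleton, the lysosome and iron storage. Actb, cytoplasmic beta actin, was at 10350.5 ± 510.1 CPM, Ctsd, the lysosomal protease cathepsin D, at 8132 ± 428 CPM, and Psap, the precursor of the saposins that assist sphingolipid breakdown, at 6569.8 ± 240.2 CPM. Fth1, the ferritin heavy chain, was at 5466 ± 152 CPM and Mpeg1, the pore-forming perforin-2 of phagocytes, at 4489 ± 122 CPM. These 5 had CVs between 2.71% and 5.26%, under the median CV of all rows at 5 CPM. The most abundant row took 1.80 to 2.14% of the counts of a library, the top 10 rows 7.97 to 8.60%, and the top 100 rows 22.9 to 23.9%. It took 688 to 725 genes to hold 50% of the counts.

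Ranking by length-corrected level kept 15 of the 25 rows of largest CPM. Ear2, a secreted ribonuclease of the eosinophil-associated family, was rank 45 by CPM (1527, 1565 and 1687 CPM) and rank 9 per length (7827 ± 495 TPM). Its relative Ear1 was at 510.4, 468 and 375 CPM and 2180.3 ± 314 TPM. Ear2 was highest in library 3 and Ear1 was lowest there, and counts of these similar genes are uncertain for the same reason as above. Lrp1 and Fn1, which encode long proteins, moved the other way: Lrp1 was rank 19 by CPM and rank 223 per length, Fn1 rank 23 and rank 149.

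**Figure D2:**
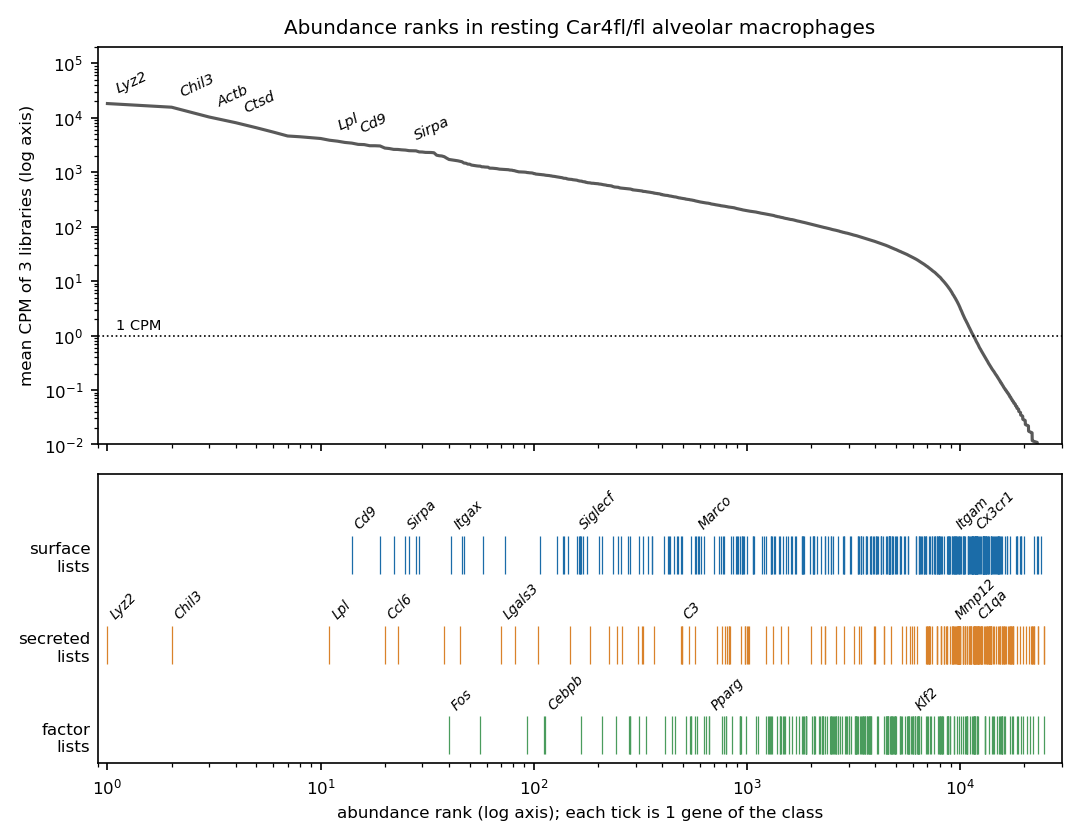
Mean CPM of the 3 libraries against abundance rank for all rows with a count (upper panel, both axes log), and the ranks of the surface, secreted and transcription factor genes of the lists (lower panel, 1 tick per gene). Secreted genes take ranks 1 and 2 (Lyz2, Chil3), the first surface gene is Cd9 at rank 14 and the first transcription factor is Fos at rank 40.

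Of 295 surface genes in 10 lists, 216 reached 1 CPM in every library, and together the surface genes took 5.81% of the counts. Of the 198 with a mean of at least 5 CPM, 4 (2.02%) were variable, beside 0.891% of all rows at that level. Sirpa, the inhibitory receptor for the self marker CD47, was at 2563, 2539 and 2562 CPM, the smallest CV of the listed surface genes at 100 CPM (0.542%). Its ligand Cd47 was at 914, 922 and 899 CPM. Per length Sirpa was at 1837 ± 29.8 TPM and Cd47 at 513 ± 12.9 TPM.

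Receptors for apoptotic cells and for particles were prominent. Axl, a TAM receptor tyrosine kinase that binds phosphatidylserine through a bridging protein, was at 2411, 2376 and 2312 CPM, and Mertk, a second TAM receptor, at 640.1, 689 and 739.5 CPM. Mertk was lowest in library 1 and highest in library 3, while Axl moved little. Per length Axl (1660.3 ± 33.4 TPM) stood above Mertk (562 ± 48.2 TPM) in every library, with no overlap of their ranges. Tyrobp, the signalling adaptor DAP12 that many activating receptors share, reached 3559 ± 133 TPM, the highest per-length level of its list.

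Among the scavenger and lipoprotein receptors, Cd68, a mostly endosomal glycoprotein, had the highest per-length level (1939 ± 101 TPM), followed by the sorting receptor Sort1 (729 ± 49.4 TPM), Lrp1 (608 ± 105 TPM) and Marco (544 ± 21.7 TPM). Lrp1, a large endocytic receptor, was at 2708, 3585 and 2837 CPM and was highest in library 2. The ranges of Sort1 and Lrp1 overlapped in TPM, and so did those of Lrp1 and Marco. Msr1, scavenger receptor A, named after its values were seen, was far below Marco at 22.5, 18.2 and 26.1 CPM and 12.4 ± 2.13 TPM.

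The lectin list was led per length by Mrc1, Clec4n (1108 ± 111 TPM) and Siglecf (897 ± 26.8 TPM), leaving out Clec7a, which had no per-length level here. Clec7a, the beta-glucan receptor dectin-1, was at 1491, 1263 and 1023 CPM and was highest in library 1 and lowest in library 3. Clec4n, dectin-2, was at 504, 431 and 403 CPM in the same order of libraries, and Siglec1, sialoadhesin, at 581, 645 and 599.7 CPM. Ly75, the endocytic receptor DEC-205, was at 504, 576 and 508 CPM. Clec1b, the podoplanin receptor CLEC-2, was the 1 variable member of the 22 at 5 CPM: it was at 44.3, 37.6 and 9.37 CPM, so library 3 lay far below the other 2.

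Of 12 Fc receptor genes, 6 reached 1 CPM in every library. Fcer1g, the common signalling gamma chain, had the highest per-length level (1481 ± 22.3 TPM), ahead of Fcgrt, the neonatal Fc receptor that recycles IgG (863 ± 100.4 TPM), and Fcgr3, an activating IgG receptor (718 ± 64 TPM). Fcgr2b, the inhibitory IgG receptor, was at 130.0 ± 3.3 TPM and Fcgr1, the high-affinity receptor, at 131 ± 22.1 TPM, and their ranges overlapped. Fcgr1 was at 96.1, 79.9 and 113 CPM, and Fcgrt, Fcgr4 and Fcgr1 shared an order of libraries with library 3 highest and library 2 lowest. The IgE receptor alpha chain Fcer1a had no count in libraries 1 and 2 and was at 0.0177 CPM in library 3, below the level of 3 counts.

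The integrin list was dominated by Itgb2, the common chain of the leukocyte integrins, at 2491, 2432 and 2498 CPM. Its partners differed widely: Itgax was at 1246 ± 124 TPM, Itgal, the CD11a chain, at 444 ± 25.3 TPM, Itgad, the CD11d chain, at 42.4 ± 19.1 TPM, and Itgam, the CD11b chain, named after its values were seen, at 3.82 ± 1.06 TPM. Itgam was at 6.07, 6.5 and 3.72 CPM, and the mean per-length level of Itgax was 327 times that of Itgam. Itgad was variable, at 70.5, 66.3 and 25.9 CPM, with library 3 lowest, and was the 1 variable integrin of 12 at 5 CPM.

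Cytokine receptors of the identity-setting signals were abundant. Csf2ra, the ligand-binding chain for granulocyte-macrophage colony-stimulating factor, was at 722, 699.9 and 646 CPM and its signalling chain Csf2rb at 773, 805 and 774 CPM. The transforming growth factor beta receptors Tgfbr1 and Tgfbr2 were at 651 ± 31.5 CPM and 696 ± 31.1 CPM. Csf1r, the receptor for macrophage colony-stimulating factor, named after its values were seen, was at 401, 369 and 344 CPM. Per length the order was Csf2ra (848 ± 43.1 TPM), Csf2rb (381 ± 15.47 TPM), Tgfbr1 (352 ± 18.5 TPM), Tgfbr2 (301 ± 18.3 TPM) and Csf1r (227 ± 14.6 TPM), of which only Csf2rb and Tgfbr1 had overlapping ranges among neighbours. Of 48 genes in this list 36 reached 1 CPM in every library, and none of the 35 at 5 CPM was variable, near the 0.891% of all rows.

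Of 27 pattern recognition genes, 24 reached 1 CPM in every library and none was variable. Tlr2, the receptor for bacterial lipopeptides, was at 1187, 1154 and 1025 CPM, and Cd14, which hands lipopolysaccharide to TLR4, at 346, 358 and 336 CPM. Tlr4, the lipopolysaccharide receptor, was at 167, 163 and 162 CPM, with a ratio of 1.03 between the highest and the lowest library. The RNA-sensing endosomal receptor Tlr8 was at 279, 279.6 and 183 CPM and was lowest in library 3. Per length the order was Tlr2 (1315 ± 93.9 TPM), Cd14 (707 ± 31 TPM), Tlr8 (243 ± 54.2 TPM) and Tlr4 (104 ± 1.12 TPM). The inflammasome sensor Nlrp3 was at 198 ± 15.7 TPM, in a range that overlapped that of Tlr8.

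G protein-coupled receptors were led per length by Fpr1, a receptor for bacterial formyl peptides (773 ± 39.7 TPM), and by Adgre1, the adhesion receptor known as F4/80 (542 ± 16.5 TPM). Cxcr4, the receptor for CXCL12, was at 183, 184 and 287 CPM, highest in library 3. The complement list had 11 genes, of which 4 reached 1 CPM in every library. C5ar1, the receptor for the C5a fragment, was at 433, 474 and 571 CPM and was highest in library 3, as were C5ar2 at 56.8, 58.8 and 78.1 CPM and Cd93 at 41.7, 43.5 and 70.1 CPM. C3ar1, the C3a receptor, was at 1.24, 1.1 and 0.992 CPM.

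Among tetraspanins and adhesion molecules, Cd9 led per length, ahead of Plet1 (1409 ± 44.3 TPM), a surface protein named for its expression in placenta, and the hyaluronan receptor Cd44 (1373 ± 87 TPM), and the ranges of the latter pair overlapped. Of the 25 genes of this list at 5 CPM, 2 were variable, beside 0.891% of all rows. They were Epcam, an epithelial adhesion protein, at 154, 131 and 55.4 CPM, and Anpep, aminopeptidase N, at 9.24, 9.31 and 4.41 CPM. Both were lowest in library 3.

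**Figure D3:**
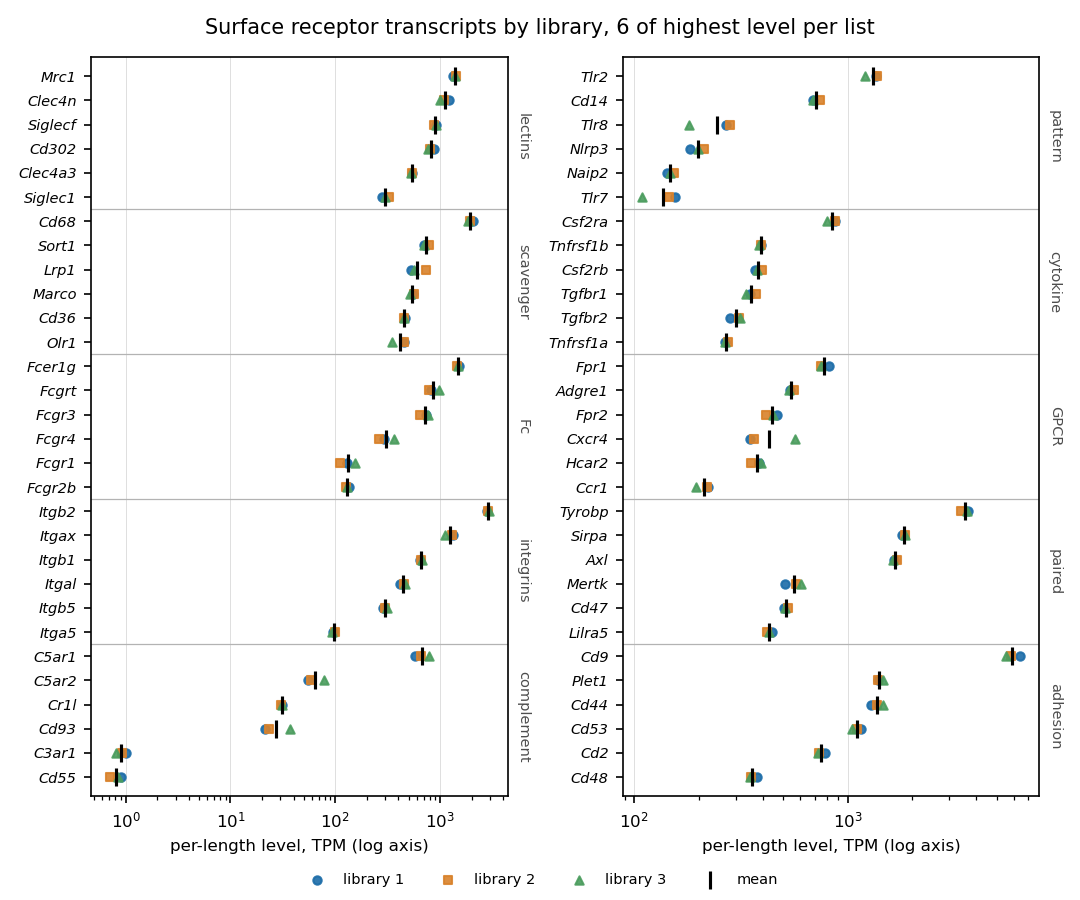
Length-corrected level (TPM, log axis) of the 6 highest genes of each of the 10 surface lists, with a point per library and the mean as a black bar. Cd9 and Tyrobp head the right panel and Itgb2 the left, and the 3 points of most receptors nearly coincide, with Tlr8 and Tlr7 lowest in library 3.

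Secreted proteins took a slightly larger share of the counts than surface proteins, 6.14%, from fewer genes. Of 212 genes in 6 lists, 116 reached 1 CPM in every library. Of the 87 at 5 CPM, 7 (8.05%) were variable, beside 0.891% of all rows. Apart from Lyz2, Chil3 and the Ear genes, the antimicrobial list held Slpi, a secreted inhibitor of leukocyte proteases, at 280.4, 236 and 187 CPM, which was highest in library 1 and lowest in library 3. In this list 5 genes had no count in any library.

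Ccl6, a constitutive CC chemokine of mouse myeloid cells, was the dominant chemokine, at 3083, 2477 and 2795 CPM, lowest in library 2. Cxcl2, a neutrophil-attracting chemokine, was at 113, 112 and 192 CPM and was highest in library 3. Cx3cl1, the ligand of the receptor CX3CR1, was at 72.1, 77.2 and 86.3 CPM and Ccl3 at 62.1, 83.7 and 65.1 CPM. Per length Ccl6 (5472 ± 490.0 TPM) was far above Ccl3 (325 ± 59.7 TPM) and Cxcl2 (237 ± 79.4 TPM), whose ranges overlapped. Of 29 chemokine genes, 14 reached 1 CPM in every library and 7 a mean of 5 CPM.

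The growth factor and cytokine list was led per length by Grn, the lysosomal and secreted progranulin (1071 ± 16.2 TPM), at 1095, 1030.0 and 1036 CPM. Tgfb1, transforming growth factor beta 1, was at 416, 402 and 435 CPM. Spp1, osteopontin, was at 378, 328 and 292 CPM, Il1rn, the interleukin 1 receptor antagonist, at 236, 212 and 239.8 CPM, and Il18, a cytokine stored as a precursor, at 209.7, 187 and 188 CPM. Per length Il18 (666 ± 31.4 TPM) and Spp1 (712 ± 81.7 TPM) had overlapping ranges. Named after their values were seen, Il6 was at 1.72, 2.2 and 3.61 CPM and the anti-inflammatory Il10 at 0.229, 0.354 and 0.301 CPM.

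In this list 6 of the 23 genes at 5 CPM were variable, beside 0.891% of all rows. Gdf15, a stress-induced hormone of the TGF-beta family, was at 55.8, 64.5 and 136 CPM, and Lif, leukaemia inhibitory factor, at 12.9, 17.1 and 28 CPM. Both were highest in library 3. Igf1, insulin-like growth factor 1, was at 23.1, 18.4 and 10.1 CPM, Tgfb2 at 14.6, 17.3 and 8.29 CPM, the B cell survival factor gene Tnfsf13b at 10.4, 11.47 and 4.77 CPM and the epidermal growth factor relative Areg at 7.13, 6.33 and 3.22 CPM. These 4 were lowest in library 3, so the variable cytokines differed in both directions there. None of the 6 was variable without library 3.

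Coagulation, complement and fibrinolysis genes formed a smaller secreted group. F7, coagulation factor VII, was at 604, 564 and 545 CPM, and Plaur, the urokinase receptor, at 526, 526 and 550.0 CPM. Pros1, protein S, which also bridges dying cells to TAM receptors, was at 499.8, 510.5 and 526 CPM, and C3, the central complement component, at 361, 333 and 311 CPM. Of the 35 genes of this list 17 reached 1 CPM in every library, and 4 were at or under 3 counts in every library.

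Fn1, fibronectin, was at 2503, 2790.3 and 2581 CPM, Anxa2, a phospholipid-binding annexin, at 2038, 1877 and 1879.8 CPM, and Lgals3, galectin 3, at 1210.2, 1098 and 1104 CPM. Per length the order was Lgals3 (2160.5 ± 77.8 TPM), Anxa2 (1828 ± 52.6 TPM), Lpl and Fn1 (794 ± 59.7 TPM). The variable member of this list was Sparc, a collagen-binding matrix protein of stromal cells, at 5.66, 7.14 and 15.8 CPM, highest in library 3. Among protease genes Cst3, the cysteine protease inhibitor cystatin C, led per length (1299 ± 43.7 TPM), and the sheddases Adam10 and Adam17 were at 215 ± 17.6 TPM and 124 ± 6.53 TPM. Mmp19, a matrix metalloproteinase, was at 188, 194 and 217 CPM. Mmp12, macrophage elastase, named after its values were seen, was at 7.85, 4.93 and 4.87 CPM.

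Of 238 transcription factor genes in 6 lists, 196 reached 1 CPM in every library, and together they took 2.62% of the counts. Of the 185 at 5 CPM, 1 (0.541%) was variable, near the 0.891% of all rows at that level. That was Ciita, the class II transactivator, described with its targets below.

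The lineage factors were led by Cebpb and Cebpa, C/EBP proteins of myeloid cells, at 901, 880.1 and 886 CPM and 719, 692 and 651 CPM. Spi1, which encodes PU.1, the factor that primes macrophage enhancers, was at 539, 504 and 559.6 CPM. Runx1 was at 423, 491 and 569 CPM, lowest in library 1 and highest in library 3. Per length the order was Cebpb (2087 ± 16.3 TPM), Cebpa (921 ± 38.2 TPM), Spi1 (700.0 ± 33.1 TPM), Bhlhe40 (348 ± 17.2 TPM) and Pparg (320.4 ± 12.6 TPM). Bhlhe40, a repressor known to support proliferation and identity of these cells, and Pparg had overlapping ranges.

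Named after their values were seen, Maf, a bZIP factor, was at 1.01, 1.1 and 1.35 CPM and Gata6, the factor of peritoneal macrophages, at 0.311, 0.169 and 0.23 CPM.

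Nuclear receptors were led by Nr4a1, an immediate early orphan receptor, at 512, 619 and 661 CPM, lowest in library 1. Rxra, the retinoid X receptor that pairs with PPARγ, was at 399, 388 and 351 CPM and the retinoic acid receptor gene Rara at 290.1, 308 and 336 CPM. Nr3c1, the glucocorticoid receptor, was at 179, 199 and 179 CPM. Of 37 genes in this list 24 reached 1 CPM in every library and 3 had no count. Per length Rxra (245 ± 15 TPM) and Rara (252 ± 21.8 TPM) had overlapping ranges, and Pparg stood above both in every library.

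The highest per-length level of any factor in the lists was that of Fos, a member of the AP-1 proteins, which assemble from Fos and Jun families. Fos was at 1551, 1500.0 and 2106 CPM and Fosb at 853, 880.2 and 1229.8 CPM, both highest in library 3. Junb was at 1216, 1289 and 1382 CPM and Fosl2 at 795, 1007 and 870.2 CPM. Per length the order was Fos (2582 ± 515 TPM), Junb (1990.3 ± 154 TPM), Fosb (559 ± 122 TPM) and Fosl2 (326 ± 45.4 TPM) with no overlap between neighbours. The summed level of the list of AP-1, MAF, ATF and stress factors was 7551, 7916 and 8875 CPM.

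Zinc finger factors were led by Klf4, which had the highest per-length level of its list. Klf4 was at 479, 448 and 554 CPM, Klf6 at 389, 353 and 313 CPM and Klf13 at 309.9, 345 and 308 CPM, with Klf4 highest in library 3 and Klf6 lowest there. Egr2, a factor tied to alternative activation and tissue macrophages, was at 262, 272 and 267 CPM. Among signal-dependent factors, Ski, a brake on SMAD signalling, was at 464, 510.5 and 508 CPM, Stat6, which acts after interleukin 4, at 303, 316 and 323 CPM, and Irf8, a lineage factor of mononuclear phagocytes, at 168, 156 and 163 CPM. Srebf2, the regulator of cholesterol synthesis, was at 176, 177 and 192 CPM and Srebf1, that of fatty acid synthesis, at 178, 178 and 137 CPM, which was lowest in library 3.

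**Figure D4:**
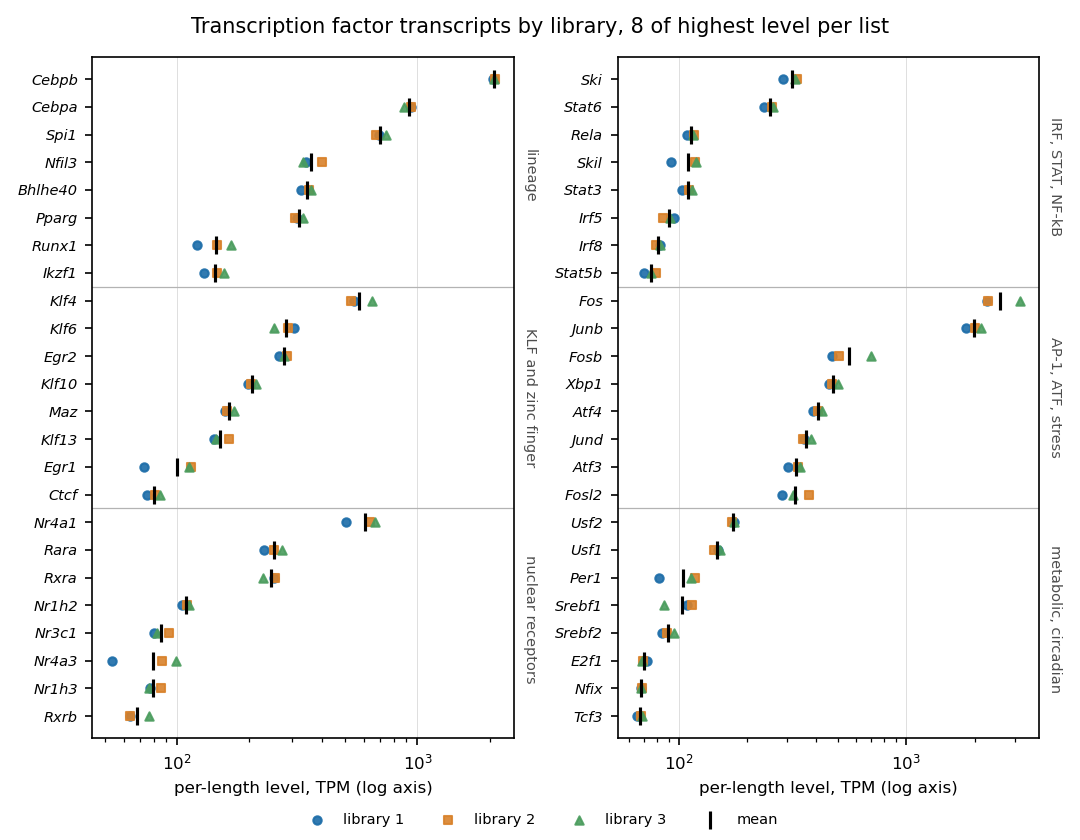
Length-corrected level (TPM, log axis) of the 8 highest genes of each of the 6 transcription factor lists, with a point per library and the mean as a black bar. Fos, Cebpb and Junb lead at 2582, 2087 and 1990.3 TPM, and the genes with the widest separation of points include Fosb, Nr4a3 and Egr1.

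Genes of the lysosome and of the actin cytoskeleton took large shares of the reads. The 47 genes of lysosomal hydrolases and cathepsins summed to 42598, 39286 and 40221 CPM, and the 33 actin cytoskeleton genes to 48331, 45748 and 47162 CPM. In the lysosomal list 45 reached 1 CPM in every library, 10 had a mean of at least 1000 CPM, and none was variable. Per length Ctsd (12209 ± 436 TPM), Ctss, cathepsin S (9675 ± 530.1 TPM), and Psap (8453 ± 213 TPM) led, ahead of Laptm5, a lysosomal membrane protein of blood cells (2864 ± 56.8 TPM).

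Genes of lipid handling were abundant. Plin2, the coat protein of lipid droplets, was at 1599, 1632 and 1791 CPM, Lipa, lysosomal acid lipase, at 1239.7, 1118 and 1036 CPM, and Nceh1, which hydrolyses cholesterol esters, at 1062, 1090.2 and 1062 CPM. Ucp2, a mitochondrial inner membrane carrier, was at 2321, 2199 and 2428 CPM, and Cpt1a, which admits long-chain fatty acids to mitochondria, at 595, 635 and 618 CPM. Of the fatty acid binding proteins, Fabp1, Fabp4 and Fabp5 were at 146 ± 17.9 CPM, 114 ± 21.6 CPM and 151 ± 7.56 CPM, named as identity genes after their values were seen. Per length Fabp1 (928 ± 101 TPM) was above Fabp5 (149 ± 6.08 TPM) and Fabp4 (90.1 ± 17.8 TPM). The variable gene in the sterol list was Scd1, the desaturase that makes oleate, at 41.2, 42 and 16.6 CPM, lowest in library 3.

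Ferritin genes led the iron list per length. Ftl1, the ferritin light chain, was at 2632, 2511 and 2299.5 CPM and 6536 ± 388 TPM, and Fth1 at 5562 ± 44.9 TPM. Tfrc, the transferrin receptor, named after its values were seen, was at 26.7, 22.4 and 29.7 CPM and 15 ± 2.02 TPM. Hmox1, which degrades haem, named after its values were seen, was at 134, 156 and 124 CPM. The variable member was Slc11a1, the phagosomal metal transporter NRAMP1, at 6.76, 8.89 and 3.28 CPM, again lowest in library 3. Counts of Ftl1 are uncertain because the genome holds many copies of it.

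Markers of other lung cells were low in sum. The 18 lists of other cell types took 0.108% of the counts, and 66 of their 173 genes reached 1 CPM in every library. Of the 29 at 5 CPM, 6 (20.7%) were variable, beside 0.891% of all rows. Eosinophil markers, which matter because eosinophils also carry Siglec-F, summed to 0.0491, 0.152 and 0.106 CPM, and 3 of the 6, Epx, Prg3 and Ccr3, had no count. Neutrophil markers summed to 94.2, 88.6 and 86.7 CPM, mostly from the receptor gene Csf3r (38.6, 44.4 and 44.9 CPM) and the collagenase gene Mmp8 (42.4, 31.3 and 27.5 CPM), while Ly6g had no count and S100a8 was at 4.5, 4.76 and 3.24 CPM.

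Classical monocyte markers summed to 27.8, 30.7 and 23 CPM, of which the chemokine receptor Ccr2 was 16.1, 15.4 and 13.5 CPM and Ly6c2 0.0981, 0.388 and 0.372 CPM. Interstitial macrophage markers summed to 17.54, 18.9 and 16.6 CPM, with Cx3cr1, the fractalkine receptor, at 1.28, 1.23 and 0.531 CPM and Cd163 at 0.703, 1.32 and 0.655 CPM. B cell markers summed to 16.8, 13.5 and 15.4 CPM, T cell markers to 6.66, 7.69 and 10.50 CPM and NK cell markers to 2.29, 4.15 and 1.97 CPM. Plasma cell markers summed to 36.6, 60.5 and 35.4 CPM, with the immunoglobulin genes Ighm at 7.97, 24.8 and 12.8 CPM and Igkc at 7.8, 14.9 and 6.77 CPM variable and highest in library 2.

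Alveolar type 2 epithelial markers summed to 263, 252 and 259 CPM, led by the lipid transporter Abca3 (119.9, 123 and 121 CPM), the protease gene Napsa (51.1, 48.6 and 45.7 CPM) and surfactant protein C, Sftpc (44, 39.3 and 47.2 CPM). The highest of these sums was 1.04 times the lowest. Endothelial markers summed to 198, 208 and 184 CPM, of which Vwf gave 129, 138 and 117 CPM, while the endothelial cadherin gene Cdh5 was at 4.5, 5.37 and 5.08 CPM. Fibroblast and smooth muscle markers summed to 15.9, 19.7 and 30.58 CPM, highest in library 3, where collagen gene Col3a1 was variable (2.76, 3.75 and 8.91 CPM). Erythroid markers summed to 2.34, 15.7 and 6.15 CPM, highest in library 2. Also variable were the alveolar type 1 marker Pdpn, podoplanin, at 17.9, 15.6 and 8.4 CPM, the club cell secretory gene Scgb1a1 at 6.36, 6.92 and 2.52 CPM and the T cell adaptor gene Lat at 3.08, 4.37 and 7.67 CPM. Pdpn and Scgb1a1 were lowest in library 3 and Lat was highest there. The source of these transcripts was not tested.

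Wide differences between the 3 libraries were limited to a small set of genes. Of the 84 variable rows, 33 were highest in library 1 and lowest in library 3, and 24 were highest in library 2 and lowest in library 3. In the reverse direction 17 were highest in library 3 and lowest in library 1, and 4 were highest in library 3 and lowest in library 2. Library 3 was the lowest of the 3 for 67.9% of the variable rows and for 30.5% of all rows at 5 CPM. In the 40 lists that are not markers of other cells, 24 of the 830 genes at 5 CPM (2.89%) were variable, beside 0.891% of all rows.

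Antigen presentation on MHC class II held the most abundant variable genes. MHC class II molecules carry peptides from the endosome to CD4 T cells. Their alpha and beta chains assemble on the invariant chain encoded by Cd74, the H2-DM proteins load the peptide, and CIITA switches the whole group on. Of the 11 genes of the list at 5 CPM, 7 were variable, beside 0.891% of all rows. Of these, 6 were highest in library 1 and lowest in library 3, and Cd86, a costimulatory ligand, was highest in library 2.

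Cd74 was at 1278, 788 and 154 CPM, a ratio of 8.31 between libraries 1 and 3. The chain genes H2-Ab1 (GRCm38 chromosome 17, 34257689 to 34269419) and H2-Aa (chromosome 17, 34282744 to 34287823) were at 440.2, 279 and 49 CPM and at 331, 204 and 36.1 CPM. H2-Eb1 (chromosome 17, 34305867 to 34316674) was at 197, 123 and 24.9 CPM. For each of these 4 genes library 2 lay between the others, at 0.617 to 0.633 of library 1, and library 3 was the lowest by far.

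The transactivator gene Ciita was at 29.4, 21.3 and 4.5 CPM, in the same order, a ratio of 6.53. H2-DMb1 was at 141, 115 and 63.6 CPM, a ratio of 2.22. Cd86 was at 12.3, 20.5 and 10.2 CPM and was not variable with TMM or DESeq2 scaling, which left 6 of 11. Without library 3 none of the 7 was variable, and without library 1 and without library 2 in turn 6 were.

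The other 4 genes of the list at 5 CPM were not variable. H2-DMa, the partner of H2-DMb1, was at 361, 304 and 294 CPM, and the protease gene Ctss at 4044, 3536 and 3592 CPM. Named after their values were seen, H2-DMb2 was at 21, 19 and 19 CPM and the costimulatory gene Cd80 at 23, 25.5 and 18.4 CPM. Their ratios of highest to lowest library lay between 1.1 and 1.39. Below 5 CPM, H2-Eb2 was at 0.278, 0.118 and 0.266 CPM, a ratio of 2.35. The MHC class I gene H2-D1 was at 2182, 2002 and 1992 CPM and its light chain gene B2m at 1311, 1142 and 1092 CPM. Of the 23 class I and peptide loading genes, 1 was variable, H2-Q7 at 10.3, 7.05 and 4.46 CPM, and Q-region genes are near-identical to one another.

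Markers of other cells that present antigen are given here by library. Dendritic cell markers summed to 153, 143 and 143 CPM, of which Cd24a gave 129, 118 and 121 CPM. Most of this sum is therefore 1 gene. Of the 15 dendritic cell markers, 3 had a mean of at least 5 CPM, and of these only Cd24a is given by library. The other members at this level, Ccl22 and Clec9a, had means of 9.92 and 5.07 CPM with TMM factors. Another 3 markers, near or below 1 CPM, are named here after their values were seen. Flt3 was at 0.164, 0.27 and 0.213 CPM, Xcr1 at 0.229, 0.456 and 0.372 CPM and Zbtb46 at 0.802, 1.05 and 0.921 CPM. These 3 were lowest in library 1, while the sum of the list was highest there. The B cell marker sum given above was lowest in library 2, and Ms4a1, the gene of CD20, named after its values were seen, was highest in library 1, with a mean of 1.34 CPM. Of the genes given above, the monocyte marker Ccr2 and the interstitial macrophage marker Cx3cr1 were highest in library 1 and lowest in library 3, the order of the class II genes. Their lists did not share this order: the sums of both were highest in library 2 and lowest in library 3. The part of any other cell type in the class II difference was not tested.

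Promoters of MHC class II genes carry a conserved arrangement of boxes on which CIITA acts through the factors bound there, and the Y box is its CCAAT-type element. The motif TGATTGG, with its reverse complement, was searched on both strands in the 150 bases before RefSeq start sites (GRCm38.p6). RefSeq windows were matched for 10 of the 15 list members, and 7 of these had the motif: H2-Aa, H2-Eb1, H2-DMb1, H2-Eb2, H2-DMb2, H2-Oa and H2-Ob. Among all 32851 windows of this length 5.71% held it, and 7.63% of the 9358 windows of genes at 5 CPM. Of the 7 genes, H2-Aa, H2-Eb1 and H2-DMb1 were variable and H2-DMb2 was not, and the other 3 were below 5 CPM. The windows of the most variable pair with a sequence here are shown with the motif in capitals, and that of the steady list member Ctss, in which these letters were not found, for comparison. The first base of the motif lies 50 bases before the start in H2-Aa (chr17:34287824-34287973, minus strand) and 61 before it in H2-Eb1 (chr17:34305717-34305866, plus strand), and the Ctss window is chr3:95526636-95526785 (plus strand).
H2-Aa: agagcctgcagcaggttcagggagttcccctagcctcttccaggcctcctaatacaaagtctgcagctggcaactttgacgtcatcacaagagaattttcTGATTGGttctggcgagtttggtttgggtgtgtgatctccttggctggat
H2-Eb1: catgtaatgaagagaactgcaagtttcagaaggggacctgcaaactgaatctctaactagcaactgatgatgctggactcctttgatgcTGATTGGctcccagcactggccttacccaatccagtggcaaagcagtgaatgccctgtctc
Ctss: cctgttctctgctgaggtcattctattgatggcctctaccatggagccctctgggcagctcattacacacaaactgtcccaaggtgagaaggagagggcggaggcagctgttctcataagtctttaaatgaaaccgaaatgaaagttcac
The ratios of the highest to the lowest library were 9.18 for H2-Aa, 7.9 for H2-Eb1 and 1.14 for Ctss. H2-DMb1 and H2-DMb2, whose windows also held the motif, had ratios of 2.22 and 1.1, so the motif was also present in a steady gene. A match of letters is a description of the window and shows neither binding nor its absence.

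**Figure D5:**
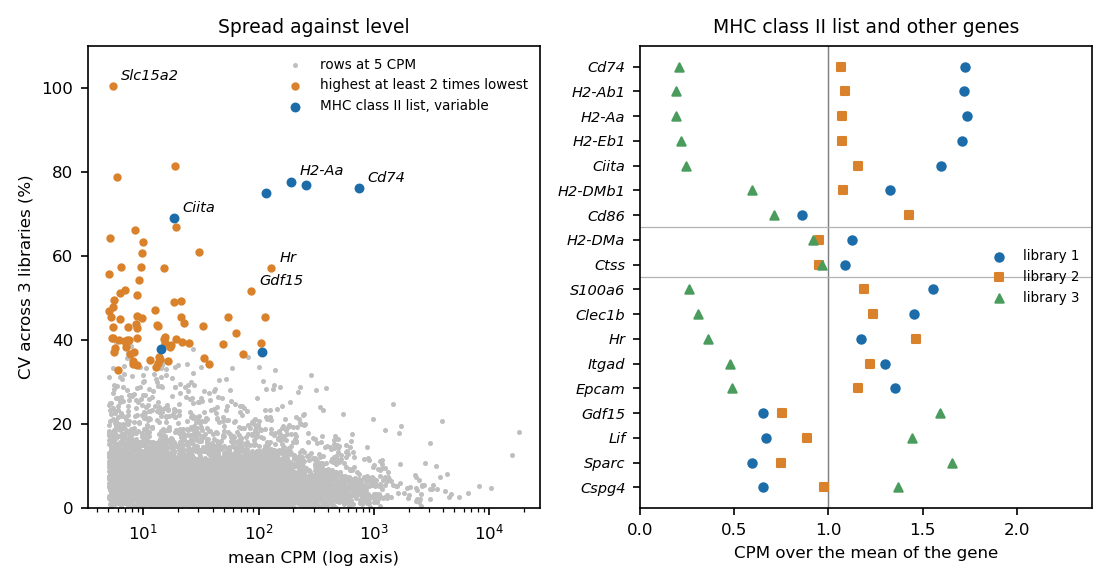
Left, CV across the 3 libraries against mean CPM (log axis) for rows at 5 CPM, with the 84 variable rows in orange and those of the MHC class II list in blue; right, the CPM of each library over the mean of the gene for the class II list and for other named genes. Library 3 lies at about 0.2 of the mean for Cd74, H2-Ab1, H2-Aa and H2-Eb1 and near 1 for H2-DMa and Ctss, and above the mean for Gdf15, Lif, Sparc and Cspg4.

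Outside the lists, the variable genes with library 3 lowest included S100a6, a calcium-binding protein, at 29.7, 22.7 and 4.94 CPM, and Hr, a corepressor of nuclear receptors, at 151, 188 and 46.4 CPM. Mfsd6, a membrane transporter-like protein, was at 14.8, 12.5 and 2.82 CPM and Ttll7, a tubulin-modifying enzyme, at 12, 11.7 and 2.02 CPM. In each of these library 3 was the outlying value, with a ratio of at most 1.31 between libraries 1 and 2. The genes with library 3 highest were fewer and included Krt4, an epithelial keratin, at 5.87, 6.77 and 16.5 CPM, and Acer3, an alkaline ceramidase, at 4.27, 4.25 and 10.6 CPM.

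Other variable genes were highest in library 2. Slc7a11, the cystine importer of the antioxidant list, was at 20.6, 33.3 and 13.7 CPM, lowest in library 3. Slc15a2, a di- and tripeptide importer, had the largest CV of all rows at 5 CPM, 100.3%, at 1.06, 11.6 and 3.74 CPM, high in library 2 alone. Eps8l1, an actin regulator, was at 4.84, 11.1 and 1.91 CPM, also lowest in library 3. Kcnq1ot1, a long noncoding RNA of an imprinted region, was at 71.8, 151 and 91.9 CPM, lowest in library 1. Of the variable rows, 30 were highest in library 2.

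At the other end, several signalling and cytoskeletal genes, picked for the smallest CVs among the 500 most abundant genes, were nearly the same in all libraries. Their low CVs follow from this choice and do not mark them as reference genes. Nckap1l, a subunit of the WAVE actin regulator of blood cells, was at 457, 458 and 459.8 CPM, and Myo1f, an unconventional myosin of leukocytes, at 609, 609 and 604 CPM. Their CVs were 0.332% and 0.504%, under those of Actb (4.93%) and Gapdh (5.58%), the glycolytic enzyme gene. Sirpa and Actn4 had ratios of highest to lowest library of at most 1.01.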

How the data were processed

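Polyadenylated RNA of sorted alveolar macrophages was measured in 3 Car4fl/fl libraries. Per the labels' protocols, RNA was prepared with the RNeasy Plus Micro Kit and captured by its polyA tail. The authors deposited whole-number counts per gene, not normalized, with 1 column per library, and columns were assigned through the library names in the labels. The submitters' processing notes name bcl2fastq 2.20.0.422, FastQC 0.11.8, cutadapt 2.5, STAR 2.6.1, SAMtools 1.9, Picard 2.21.1, StringTie 2.0, DESeq2 1.22.1, edgeR 3.26.5 and featureCounts 1.6.4, with no role or order, and GRCm38 as the genome. Neither the annotation release nor the strand setting is stated there. Whether reads of a gene and its overlapping or antisense partner were separated is therefore not known. Counts of near-identical copies (Chil3, Lyz2, Ear genes, Ftl1, immunoglobulin and H2-Q genes) are uncertain.

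Counts were divided by the library total over all rows to give CPM. Of 46078 rows, 45229 were found in GENCODE M21 (GRCm38), which gave gene types, coordinates and union exon lengths for TPM over protein-coding genes, and 849 were not. For the 214 symbols on more than 1 row, the row of most counts stood for the symbol. A gene was called variable where its mean was at least 5 CPM and its highest library at least 2 times its lowest. Counts of each pair of libraries differed by more than sampling noise (chi-square over its degrees of freedom 19.6 to 36.1), so none is a repeat deposit of another. That they are separate mice rests on the design text. Floors of 3 counts cover counting error only, since PCR copies are not separate molecules.

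The members and the gene lists were chosen with earlier results of these data known. The named genes are the 25 rows of largest CPM, the 6 most abundant and all variable members of each list, whole lists of up to 12 genes, the 25 genes of largest and 15 of smallest CV (the latter among the 500 most abundant), leaving out predicted genes, antigen receptor segments, pseudogenes and mitochondrial transcripts, and the 6 defining markers. Of the list members, Ear3, C5, Cd300c2, Lilrb4a, Tf and Flvcr1 were not matched by symbol. Alternatives were edgeR 4.0.16 TMM factors, DESeq2 1.42.0 size factors, other thresholds, ranking by TPM, and leaving out each library. Promoter windows came from RefSeq (GRCm38.p6), and for the MHC class II list those on chromosome 18, where Cd74 lies, were left out. Some genes chosen this way are left out of the text. The code was tested on simulated data. Python 3.11.15, pandas 2.3.3, numpy 2.4.6, matplotlib 3.10.9 and R 4.3.3 were used.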

Additional observations from a re-analysis of the deposited data

How the results depend on the processing

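The count of 11153 rows at 1 CPM in every library was 11173 with TMM and with DESeq2 factors, and 11198 to 11330 when each library was left out in turn. The 84 variable rows became 83 with TMM factors (81 shared) and 84 with DESeq2 factors (82 shared). Other thresholds moved this count: it was 4799 with no filter beyond 1 count in every library, 339 at a mean of at least 1 CPM, 22 at 20 CPM, 296 at a ratio of 1.5 and 20 at a ratio of 3. By construction these settings admit more or fewer rows. Leaving out each library in turn gave 10 to 70 variable rows, the fewest without library 3, and fewer libraries narrow the range by construction. The 24 variable list genes outside the other-cell lists were also 24 with TMM and with DESeq2 factors. Leaving out libraries for the lists was chosen after seeing the data, and without library 3 only Ighm of the variable list members was still variable. Of the 25 rows of largest CPM, 15 were also among the first 25 by counts per kilobase, which divides by length. Over 423 named genes the mean moved by at most 1.76% with TMM or DESeq2 factors. Without mitochondrial and ribosomal protein genes it moved by at most 3.39%, which was over 1 SD for 58 genes. Leaving out a library moved it by up to 50% (library 1) and 100% (library 2 or 3), the largest changes being in genes with a mean below 3 counts. No paired analysis was possible because the values describe 1 group and come from no test. Depth limits statements on genes near 3 counts.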

Other observations

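Proliferation genes were expressed at rest. Of 43 cell cycle genes, 42 reached 1 CPM in every library and none was variable. Ccnd2, cyclin D2, was at 412, 463 and 553 CPM and the cell cycle inhibitor gene Cdkn1a at 358, 385 and 392 CPM. Mki67, the proliferation marker Ki-67, was at 112, 149.8 and 159 CPM, and Pcna, the sliding clamp of replication, at 166, 159 and 159 CPM. Mki67 was lowest in library 1, and the ratio of highest to lowest library was 1.04 for Pcna. The list summed to 2468, 2658 and 2781 CPM.

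The eicosanoid list was led per length by 2 leukotriene genes. Alox5, the lipoxygenase that starts leukotriene synthesis, was at 552, 513 and 506 CPM and its activating protein gene Alox5ap at 369, 359 and 368 CPM. Per length Alox5ap (908 ± 10.9 TPM) was above Alox5 (449.9 ± 13.6 TPM). Of the 15 genes of this list at 5 CPM, 2 were variable, beside 0.891% of all rows. The cyclooxygenase gene Ptgs1 was variable at 7.77, 5.4 and 12.8 CPM, and Ptgs2, named after its values were seen, was at 1.36, 1.92 and 0.833 CPM. The epoxide hydrolase gene Ephx1 was variable at 15.1, 12 and 7.1 CPM, lowest in library 3.

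Interferon-stimulated genes were low, and their spread was near that of all rows. The 36 genes of the list summed to 599, 587 and 597 CPM, with a ratio of 1.02 between the highest and the lowest library, and Slfn2, a regulator of leukocyte quiescence, gave 186, 175 and 184 CPM of this. Of the list, 14 genes had a mean of at least 5 CPM and none was variable, near the 0.891% of all rows. The median CV of these genes was 5.12%, beside 5.43% for all rows at that level. Immediate early genes summed to 10329, 10637 and 11915 CPM and were highest in library 3, as were heat shock and chaperone genes at 8347, 7989 and 9316 CPM.

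Keratins and junction genes of epithelial type were part of the profile. Krt19 and Krt79, type I and type II keratins, were at 745, 706 and 699 CPM and at 690.5, 663 and 739 CPM. Cdh1, the cadherin of epithelial junctions, named after its values were seen, was at 103, 107 and 118 CPM. Epcam was the variable gene among 15 of this list at 5 CPM. Antioxidant genes were led by Gpx1, glutathione peroxidase 1, at 742, 645 and 758 CPM, and glycolytic genes by Aldoa, aldolase A, at 1119.6, 1024 and 984 CPM. None of the 22 glycolytic genes at 5 CPM was variable, and of the 27 antioxidant genes 1 was, Slc7a11.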
